A study of Homo sapiens with 4 samples.

Results

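The FAM171 family was followed in MTAC-P, a resistant human lung cancer line, and in PC9, an EGFR-mutant lung adenocarcinoma line. The family has 3 members here, FAM171A1, FAM171A2 and FAM171B, out of 18239 genes that the table names, and it is covered by 7 of the 49386 probe sets. Its members were chosen by gene symbol, after the MTAC-P minus PC9 difference of FAM171A1 was known to be large, so that the members' differences between the lines are a description and carry no p-value. For each gene the probe set that was brightest on average across the 4 arrays gave the value, and its other probe sets are shown beside it. Per the labels, MTAC-P was established by mild exposure to a tyrosine kinase inhibitor. The inhibitor, its dose, the parent line, clonality and the presence of drug at harvest are not given in the sources used here. PC9 cells carry no treatment label, and both lines were grown in DMEM with serum. There were 2 arrays of MTAC-P and 2 of PC9, and the design text calls them duplicates. Nothing says that these were separate cultures, and the spread between duplicates may therefore be technical.

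FAM171 proteins span the membrane once. FAM171A1, also called astroprincin, has been described as a regulator of cell shape and invasive growth in human cells. FAM171A2 has been described as a regulator of progranulin, a secreted growth factor that also acts in lysosomes, and as a neuronal receptor of alpha-synuclein fibrils. FAM171B is known mainly from brain and carries a polyglutamine tract.

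RefSeq (GRCh38.p14) windows of the 250 bases before the start were found for 2 of the 3 members, and they are shown as the sequence just upstream of the 2 members whose means differed most between the lines. Capitals mark matches on either strand to 2 motifs, the GC box GGGCGG and the E-box CAGGTG, which do not overlap here. The FAM171A1 window is on the minus strand at chr10:15371290-15371539 and the FAM171B window on the plus strand at chr2:186693810-186694059, both printed along the direction of transcription.
FAM171A1: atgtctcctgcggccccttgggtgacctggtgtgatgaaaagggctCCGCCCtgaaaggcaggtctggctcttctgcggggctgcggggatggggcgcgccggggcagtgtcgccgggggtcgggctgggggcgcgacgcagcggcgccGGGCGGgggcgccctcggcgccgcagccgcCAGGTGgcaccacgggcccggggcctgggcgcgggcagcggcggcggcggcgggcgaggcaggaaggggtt
FAM171B: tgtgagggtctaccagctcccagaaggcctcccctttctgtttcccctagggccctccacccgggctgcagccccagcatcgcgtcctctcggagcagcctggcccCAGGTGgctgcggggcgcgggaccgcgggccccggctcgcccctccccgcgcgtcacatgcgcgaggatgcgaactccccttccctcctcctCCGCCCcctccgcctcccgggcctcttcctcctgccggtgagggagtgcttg
The FAM171A1 window was 78.4% G or C with 32 CpG dinucleotides, and the FAM171B window was 72.8% G or C with 21. Over all 35114 windows of this length the medians were 58% and 11. The GC box occurred 2 times before FAM171A1 and 1 time before FAM171B, and 42.6% of all windows hold it. The E-box occurred 1 time in each, and 17.5% of all windows hold it. The AP-1 motif TGANTCA, present in 6.57% of windows, was in neither. These matches describe letters and not binding.

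The arrays of a line correlated at r = 0.990 for MTAC-P and 0.992 for PC9 across 14970 tested genes, which are not independent replicates, and between lines r ran from 0.980 to 0.990. The deposited values are log2 expression values, with array medians of 4.85 to 4.88. The ACTB control read higher at its 3 prime than at its 5 prime probe set, by 1.51 and 1.75 on MTAC-P replicates 1 and 2. On PC9 replicates 1 and 2 that difference was 1.71 and 2.49, and its part in the results was not tested. The 24 poly-A spike-in probe sets averaged 7.97 and 8.08 on the MTAC-P arrays, against 7.16 and 7.51 on the PC9 arrays, and whether this plays a part in the results was not tested. Of 10 markers of lung adenocarcinoma epithelium, EPCAM, CDH1 and the keratin genes KRT7, KRT8, KRT18 and KRT19 lay above 10 on every array, MUC1 lay between 7.36 and 8.10, and the lung lineage markers NKX2-1, NAPSA and SFTPB lay between 4.59 and 5.22. The table has no detection calls. Its nonspecific controls holding 3 to 24 G or C letters ran from 3.59 to 5.23 on the MTAC-P arrays and from 3.56 to 4.95 on the PC9 arrays, while the 1 with 25 lay at 7.34 and 7.38 on the MTAC-P arrays and at 6.94 and 6.81 on the PC9 arrays.

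On the probe sets used, FAM171A1 was much higher in MTAC-P, FAM171B had lower values there and FAM171A2 was close in both lines. FAM171A1 read 7.25 and 7.67 on the MTAC-P arrays, against 4.86 and 4.81 on the PC9 arrays. Both MTAC-P arrays lay above both PC9 arrays, and the nearest pair was still 2.39 apart. FAM171A1 thus averaged 7.46 ± 0.30 in MTAC-P and 4.84 ± 0.036 in PC9 (log2, SD, n = 2 each), a log2 difference of 2.62 (limma SE 0.19, 95% interval 2.16 to 3.08), or 6.15-fold. On the linear scale these are 152 and 203 in MTAC-P, against 29.1 and 28.1 in PC9. The PC9 values lay inside the range of the nonspecific controls with up to 24 G or C and the MTAC-P values above it. The control with 25 read 7.34 and 7.38 on the MTAC-P arrays, above FAM171A1 on MTAC-P replicate 1. The other FAM171A1 probe sets gave 1.91-fold and 1.39-fold, so the size of the fold is uncertain.

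**Figure D1:**
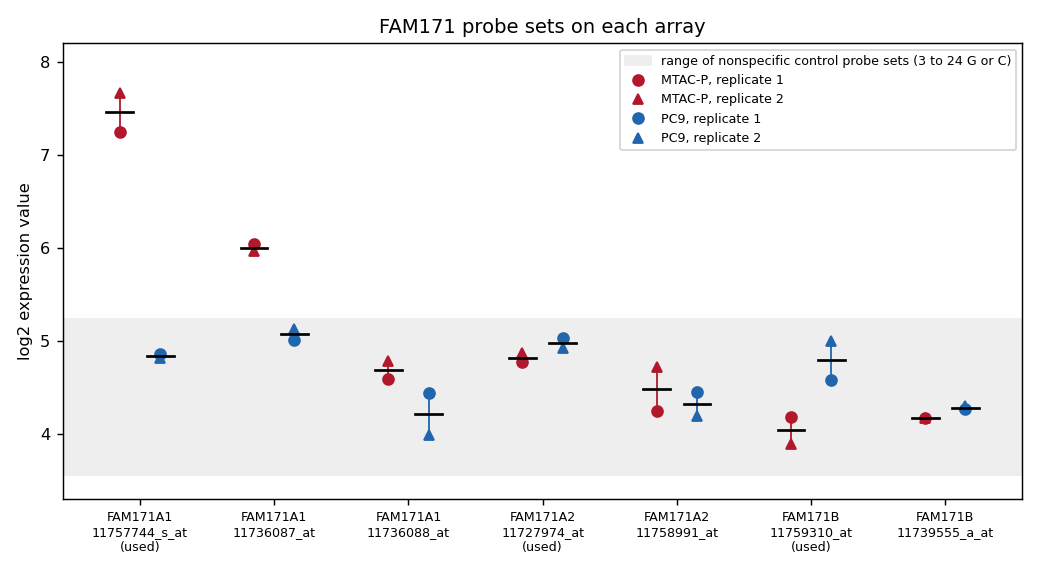
Log2 expression values (vertical axis) of the 7 FAM171 probe sets on each array, MTAC-P in red left of PC9 in blue, with circles for replicate 1, triangles for replicate 2, black bars for line means and grey for the range over both lines, 3.56 to 5.23, of nonspecific controls holding 3 to 24 G or C letters. The 3 FAM171A1 probe sets separate the lines in 1 direction by unequal amounts. The FAM171A1 probe set 11736088_at and the FAM171A2 and FAM171B probe sets lie in the grey band on all arrays. Of these, FAM171A2 on PC9 replicate 1 (5.03) and FAM171B on PC9 replicate 2 (5.003) exceed the PC9 upper end of 4.95.

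The other FAM171A1 probe sets were also higher in MTAC-P, by less. The probe set 11736087_at read 6.04 and 5.97 in MTAC-P, against 5.01 and 5.13 in PC9, a log2 difference of 0.93. Its PC9 mean of 5.07 exceeded the 4.84 of the probe set used. That probe set was thus the brightest of the 3 through MTAC-P alone, and it had the largest difference. The dimmest, 11736088_at, read 4.59 and 4.78 in MTAC-P, against 4.44 and 3.99 in PC9, a log2 difference of 0.47. On each of the 3 probe sets both MTAC-P arrays lay above both PC9 arrays, although the dimmest left a gap of 0.15 between the lines. That gap was smaller than those between its duplicates, 0.19 in MTAC-P and 0.46 in PC9. All values of the dimmest lay within their line's range of nonspecific controls with up to 24 G or C. Of the 2877 tested genes with 3 probe sets, 7.79% had all 3 apart with MTAC-P higher. The differences of the FAM171A1 probe sets spanned 2.15, and the median span over those genes was 0.34. The brightest of the 3, 11757744_s_at, which gives the 6.15-fold value, has a name ending that in Affymetrix naming marks probes shared by transcripts of more than 1 gene, while the platform annotation lists only FAM171A1 for it.

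FAM171A2 read 4.77 and 4.86 on the MTAC-P arrays, against 5.03 and 4.93 on the PC9 arrays. The MTAC-P arrays were both lower, but only 0.062 separated the nearest arrays, less than the gap of 0.093 between the MTAC-P duplicates. The means were 4.82 ± 0.066 in MTAC-P and 4.98 ± 0.070 in PC9 (log2, SD, n = 2 each), a log2 difference of -0.16 (limma SE 0.15, 95% interval -0.53 to 0.21). Its other probe set, 11758991_at, read 4.24 and 4.72 in MTAC-P, against 4.45 and 4.195 in PC9. There the arrays of the lines overlapped and the log2 difference had the other sign, 0.16. Of the 4034 tested genes with 2 probe sets, 34.5% had probe sets of opposite sign. With an interval reaching down to -0.53, equal FAM171A2 expression is not shown.

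FAM171B read 4.18 and 3.89 on the MTAC-P arrays, against 4.57 and 5.003 on the PC9 arrays. Both MTAC-P arrays lay below both PC9 arrays, with 0.40 between the nearest. The means were 4.04 ± 0.20 in MTAC-P and 4.79 ± 0.30 in PC9 (log2, SD, n = 2 each), a log2 difference of -0.75 (limma SE 0.21, 95% interval -1.25 to -0.25), or 1.68-fold higher in PC9. Its other probe set, 11739555_a_at, read 4.17 and 4.17 in MTAC-P, against 4.27 and 4.30 in PC9, a log2 difference of -0.11. The probe set used was the brighter over the 4 arrays through PC9 alone, its MTAC-P mean of 4.04 lying under the 4.17 of 11739555_a_at. The arrays did not overlap on either FAM171B probe set, and 9.35% of the genes with 2 probe sets had both apart in this direction. All FAM171B values lay within the range of the nonspecific control probe sets of the same line except PC9 replicate 2 on the brighter probe set, 5.003 against an upper end of 4.95, and the spread of the brighter one, a pooled SD of 0.26, was above the median of 0.17 over all tested genes.

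Set among all genes, FAM171A1 had the highest MTAC-P minus PC9 difference, and 4 of the 14970 tested genes (0.0267%), itself included, differed by at least as much in either direction. Duplicates lay as far apart as that for 1 gene on the MTAC-P arrays and 7 genes on the PC9 arrays. For FAM171B, 5.99% of genes differed by at least as much, and for FAM171A2 62.5% did. All 3 members had a 4-array mean above the limit for dim genes, 4.14, but FAM171B passed it through PC9 alone, its MTAC-P mean of 4.04 lying under it. With limma's adjusted p at a threshold of 0.05 across all tested genes, 1 of the 3 members, FAM171A1, was called, against 0.0200% of all genes (3 of 14970, the others being BMP5 and LCP1), 0.0134% as higher and 0.00668% as lower in MTAC-P. FAM171A1 was also the 1 member at least 2-fold higher in MTAC-P, as were 0.401% of genes, and none of the 3 was at least 2-fold lower, as were 1.62%. No member had overlapping lines, 1 being higher and 2 lower in MTAC-P, and this held for 53.2% of all genes, 28.3% higher and 24.9% lower. Since FAM171A1 was selected on this contrast, nothing is read from these counts.

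**Figure D2:**
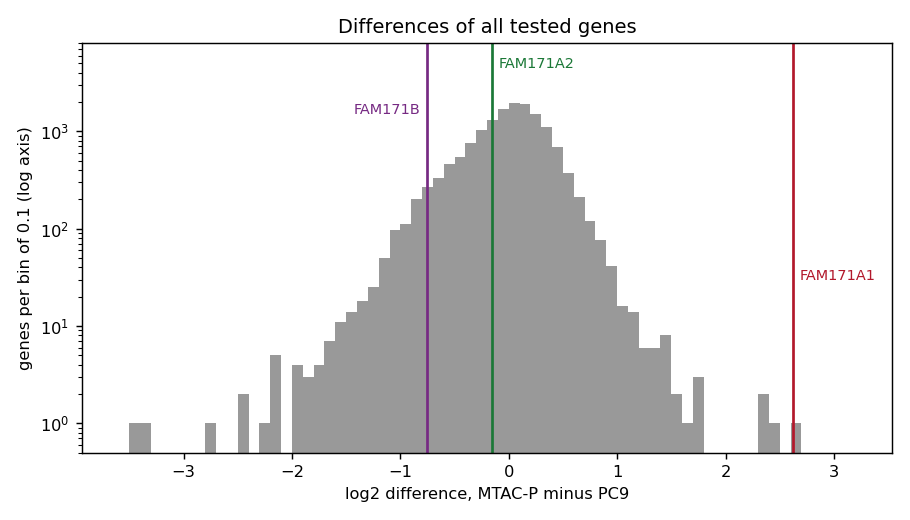
Number of tested genes per bin of 0.1 (vertical log axis) by log2 difference between MTAC-P and PC9 (horizontal axis), with lines at the 3 FAM171 genes. FAM171A1 is at the right end of the distribution at 2.62, FAM171B at -0.75 and FAM171A2 at -0.16.

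The size of the FAM171A1 difference held when single arrays were left out, between 2.41 and 2.83, but its call did not. FAM171A1 was called under 7 of 12 alternative settings, and not without either MTAC-P array, with its probe sets averaged (1.34), with a pseudocount of 16 (2.11) or with a dim limit at the 50th percentile. Since FAM171A1 was selected on this contrast, nothing is read from its calls. FAM171B stayed between -0.97 and -0.54 when single arrays were left out, and averaging its probe sets gave -0.43. FAM171A2 was at -0.0011 with its probe sets averaged.

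**Figure D3:**
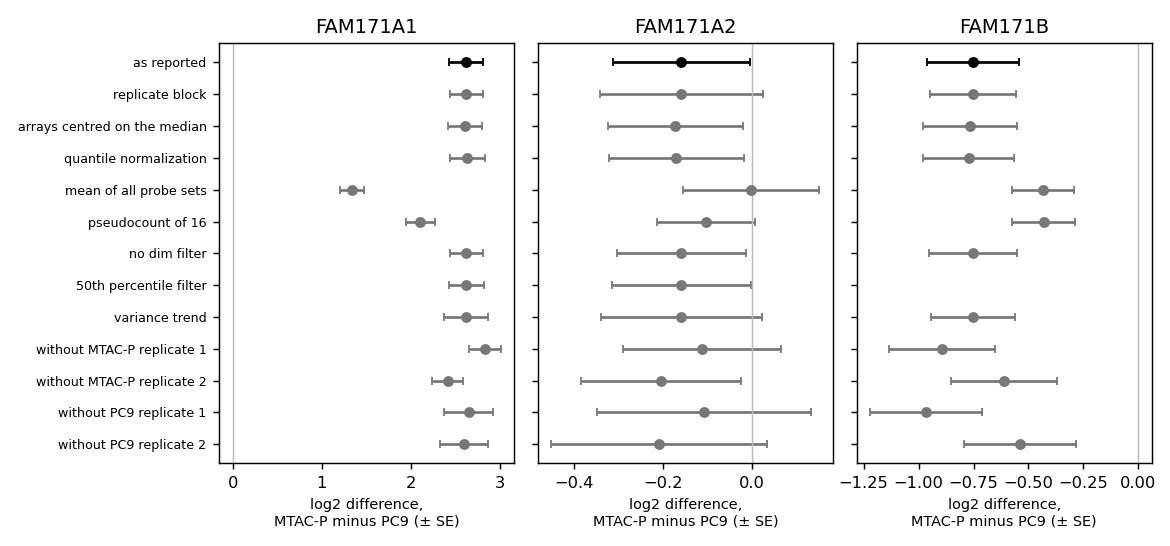
Log2 difference between MTAC-P and PC9 with limma's SE (horizontal axis, a separate scale per gene) for each FAM171 gene as reported and under each alternative setting (vertical axis). FAM171A1 moves to 1.34 with all probe sets averaged, FAM171A2 to -0.0011, and FAM171B has no value with the 50th percentile filter.

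The 10 nearest tested genes of each member, 5 on each side in the order of the GRCh38.p14 gene table, were set beside it. Around FAM171A1, on chromosome 10, 6 had higher and 4 lower means in MTAC-P, and the median log2 difference was 0.15, against 0.031 over all tested genes. None of them was 2-fold apart. The nearest tested genes on either side, the pseudogene PPIAP30 and MINDY3, which encodes a deubiquitinase, differed by 0.15 (SE 0.24) and -0.75 (SE 0.37). The next tested gene, the 6th on the side of MINDY3, was VIM, which encodes the intermediate filament vimentin. VIM, chosen with its values known, read 8.44 and 6.68 on the MTAC-P arrays, against 5.70 and 4.78 on the PC9 arrays. These arrays did not overlap either, but the duplicates of VIM lay 1.76 apart in MTAC-P, against 0.42 for FAM171A1.

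FAM171A2, on chromosome 17, lies next to GRN, the progranulin gene, with no tested gene between them. GRN read 8.53 and 8.64 in MTAC-P, against 8.81 and 8.92 in PC9, a log2 difference of -0.28 (SE 0.16, limma adjusted p = 0.372). Its other neighbour, the integrin gene ITGA2B, differed by -0.013. Of its 10 neighbours 6 had higher and 4 lower means in MTAC-P around a median of 0.15, and FZD2, a Wnt receptor gene, had the largest difference at 0.83 (SE 0.16, limma adjusted p = 0.111).

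Around FAM171B, on chromosome 2, 8 of 10 neighbours had lower and 2 had higher means in MTAC-P and the median log2 difference was -0.41, whereas 53.8% of all tested genes were higher. Of the 10, 7 were lower on both MTAC-P arrays, against 24.9% of all genes, and 2 were higher on both, against 28.3%. None passed limma's adjusted threshold, as 0.0200% of genes did, and 5 of the 10 had an unadjusted p under 0.05, against 18.9% of all tested genes. TFPI, which encodes an inhibitor of the tissue factor coagulation pathway, read 7.80 and 7.49 in MTAC-P, against 8.57 and 9.09 in PC9, a log2 difference of -1.18 (SE 0.23, limma adjusted p = 0.111). ITGAV, the integrin alpha-V gene and the nearest tested gene on 1 side of FAM171B, read 6.85 and 7.30 in MTAC-P, against 7.66 and 8.26 in PC9. Its log2 difference was -0.88 (SE 0.26), and that of NCKAP1, which encodes a subunit of the WAVE actin regulatory complex, was -0.78 (SE 0.20). CALCRL, a receptor gene and the nearest tested gene on the other side of FAM171B, differed by 0.33 (SE 0.18). The median of these neighbours stayed negative under all 12 alternatives, from -0.73 to -0.37.

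**Figure D4:**
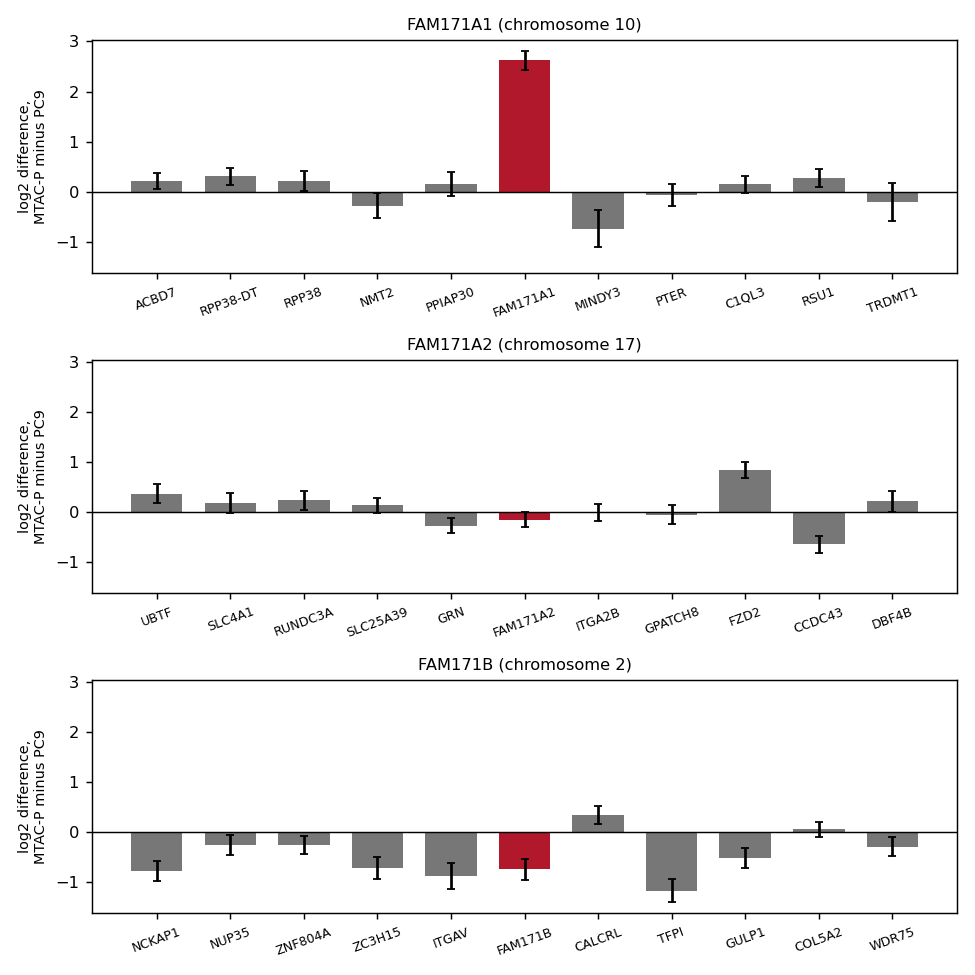
Log2 difference between MTAC-P and PC9 (vertical axis, bars with limma's SE) of each FAM171 gene (red) and its 5 nearest tested genes on either side (grey, in gene order, not to distance). FAM171A1 at 2.62 stands among neighbours between -0.75 and 0.30, and FAM171B at -0.75 among 8 lower and 2 higher neighbours.

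The genes most like FAM171A1 in pattern were ranked by the Euclidean distance between their 4 log2 values and its own, each centred on the gene's mean, over the 4 arrays. BMP5, which encodes a bone morphogenetic protein, was nearest at 0.58, then COL13A1, a transmembrane collagen gene, at 0.74, and WNT5A, a secreted Wnt ligand gene, at 0.92. DENND2A, which encodes a regulator of Rab GTPases, followed at 0.94 and XBP1, a transcription factor gene of the unfolded protein response, at 1.02. The centred values of FAM171A1 themselves lay 2.64 from 0. COL13A1 read 6.31 and 7.70 in MTAC-P, against 4.74 and 4.52 in PC9, so its MTAC-P duplicates were less alike than those of FAM171A1. DENND2A read 7.88 and 8.88 in MTAC-P, against 6.58 and 6.63 in PC9, with MTAC-P replicate 2 the highest, as for FAM171A1. All 5 genes were higher on both MTAC-P arrays, which the measure favours.

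**Figure D5:**
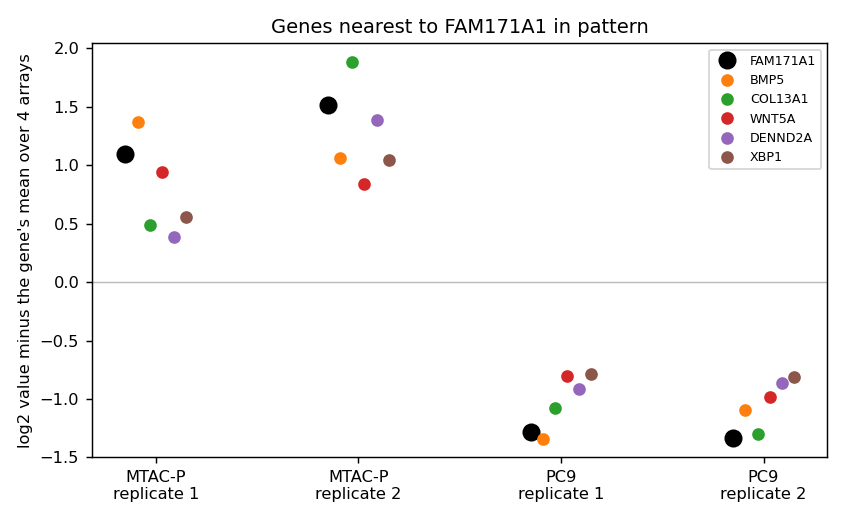
Log2 value minus the gene's own mean over the 4 arrays (vertical axis) on each MTAC-P and PC9 array (horizontal axis) for FAM171A1 (black) and the 5 genes nearest to it. All 6 genes are above 0 on both MTAC-P arrays and below 0 on both PC9 arrays.

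Genes of actin stress fibres and their regulation were examined because of the cell shape role described for FAM171A1. Of 31 tested genes, 0 passed limma's adjusted threshold and 7 had an unadjusted p under 0.05, against 3 and 2823 of all 14970 genes. Means in MTAC-P were higher for 22 and lower for 9, at a median log2 difference of 0.11. Of all tested genes 53.8% were higher, at a median of 0.031. MYH10, a nonmuscle myosin gene, had a difference of 0.63 (SE 0.24, limma adjusted p = 0.241). TAGLN, which encodes the actin-binding protein transgelin, had the lowest at -1.17 (SE 0.46). The kinase genes ROCK1 and ROCK2, named after their values were seen, differed by -0.64 and -0.49.

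For FAM171A2, of 13 tested progranulin and lysosome genes 0 passed limma's adjusted threshold and 2 had an unadjusted p under 0.05, against 0.0200% and 18.9% of all tested genes. The means of 6 were higher and of 7 lower in MTAC-P, around a median of -0.076. NPC2, a lysosomal cholesterol carrier gene, was at 0.34 and TFEB, a transcription factor gene of lysosome biogenesis, at 0.30, while TMEM106B, a lysosomal membrane protein gene, was at -0.63 and LAMP2 at -0.48. Of 6 tested genes of alpha-synuclein uptake and neuronal vesicles 0 passed limma's adjusted threshold and 1 had an unadjusted p under 0.05. The shares over all tested genes were those given above. The highest differences were those of SYP, the synaptophysin gene, at 0.56 and SNCG at 0.39, and the lowest were those of LAG3 at 0.028 and APLP1 at -0.23. The highest mean among these 6 was that of SYP in MTAC-P, 5.50.

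Markers of astrocytes, for which astroprincin is named, and of neurons were read on the same arrays. Of 9 astrocyte markers 7 were higher and 2 lower in MTAC-P, where 53.8% of all tested genes were higher. None of the 9 passed limma's adjusted threshold, as 0.0200% of genes did, and 2 had an unadjusted p under 0.05, as 18.9% of genes did. SLC1A3, a glial glutamate transporter gene, read 6.15 and 6.18 in MTAC-P, against 4.88 and 4.62 in PC9, a log2 difference of 1.41 (SE 0.17, limma adjusted p = 0.0971). GFAP, an astrocyte intermediate filament gene, read 5.12 and 4.41 in MTAC-P, against 4.17 and 4.07 in PC9, a log2 difference of 0.64. NDRG2 and ALDH1L1 had the lowest differences, at -0.093 and -0.081. Summed on the linear scale the 9 astrocyte markers came to 1858 and 1379 in MTAC-P, against 1546 and 1387 in PC9, and most of each sum came from SOX9, also expressed in airway epithelium. The other 8 summed to 263 and 281 in MTAC-P, against 213 and 217 in PC9, so the lines overlapped with SOX9 and not without it. Of these 8, SLC1A3 had the largest difference, 1.41, and a sum without SLC1A3 was not taken. Its PC9 values lay within the PC9 range of nonspecific controls with up to 24 G or C. On every array GFAP, AQP4, S100B, SLC1A2, ALDH1L1 and GJA1 lay within their line's range of nonspecific controls with up to 24 G or C.

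Of 8 neuron markers 3 lay under the dim limit, and of the 5 tested 0 passed limma's adjusted threshold and 1 had an unadjusted p under 0.05. Over all tested genes these shares were 0.0200% and 18.9%. RBFOX3 differed by 0.43, DCX by 0.41, STMN2 by -0.35 and MAP2 by -0.31. The sums of the 8 were 1466 and 1120 in MTAC-P, against 1141 and 1274 in PC9, and most of each came from TUBB3. The other 7 summed to 153 and 129.5 in MTAC-P, against 132 and 139.6 in PC9. Among them only MAP2 on PC9 replicate 2 (5.15) exceeded its line's upper end of the nonspecific controls with up to 24 G or C. Of 10 lung adenocarcinoma epithelium markers 4 were higher and 6 lower, where 53.8% of all tested genes were higher. Of the 10, 0 passed limma's adjusted threshold and 2 had an unadjusted p under 0.05, against the same 0.0200% and 18.9%. KRT8 was at 0.36, NKX2-1 at 0.12, CDH1 at -0.54 and EPCAM at -0.49. The sums of the 10 were 61708 and 62225 in MTAC-P, against 60808 and 60973 in PC9. Without KRT18, the brightest, they were 39938 and 40311 in MTAC-P, against 40372 and 41202 in PC9.

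Of 6 fibroblast and 5 blood markers, 4 of each were tested and 0 passed limma's adjusted threshold or had an unadjusted p under 0.05. Over all tested genes those shares were 0.0200% and 18.9%. COL1A2 differed by 0.12, COL1A1 by 0.023, PDGFRB by -0.45 and DCN by -0.21, and among the blood markers CD3E by 0.24, CD68 by 0.24, HBB by 0.14 and CD14 by -0.17. The sums were 106 and 116 in MTAC-P and 117 and 131 in PC9 for fibroblast markers, and 632 and 760 in MTAC-P and 603 and 595 in PC9 for blood markers, most of the blood sum coming from CD68. PDGFRB on PC9 replicate 2 read 5.22, against an upper end of 4.95 for the PC9 nonspecific controls with up to 24 G or C. No other fibroblast value exceeded its line's upper end. Without CD68 the blood sums were 114 and 103 in MTAC-P, against 92.1 and 116 in PC9. The part of any of these markers in the FAM171 values was not tested, and fewer cells of a type and less RNA per cell cannot be told apart in bulk RNA.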

How the data were processed

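Total RNA of both lines was labelled with Cy3. The authors deposited log2 expression values, 1 per probe set and array, and their range, with medians near 4.85, was taken to show a log2 scale. Agilent Feature Extraction 10.7 is named in the submitters' processing notes, whereas the probe set names are of Affymetrix type, and the background correction, summarization and normalization are not given in the sources used here.

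Probe sets with 1 gene symbol in the platform annotation (45253) were used, and those with several symbols (1327), no name here (2713) or control status (93) were not. Symbols were updated through gene identifiers to GRCh38.p14. Of 18239 genes, the 14970 whose brightest probe set had a mean at or above the 25th percentile of all probe sets (4.14) entered a 2-sided moderated test (limma 3.58.1, R 4.3.3) adjusted by Benjamini-Hochberg over all of them. Precision is limited by the number of arrays: exact permutation of 2 against 2 cannot reach a p below 0.333. The settings varied were a replicate block, median centring, quantile normalization, averaged probe sets, a pseudocount of 16, no dim limit or one at the 50th percentile, a variance trend and each array left out. Figures used Python 3.11.15 and matplotlib 3.10.9.

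The members and lists were chosen with earlier results of these data known. Besides the members, named genes are those past the threshold, the 5 nearest in pattern to FAM171A1, neighbours within 5 genes, the 2 highest and 2 lowest of each list, and VIM. Some stress fibre list genes that this rule names are not reported here. ROCK1, ROCK2 and other list genes or markers were named after their values were seen.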

Additional observations from a re-analysis of the deposited data

Results flagged for a closer look

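The 24 poly-A spike-in control probe sets, which the comparison of genes does not use, were 0.69 higher on the log2 scale on the MTAC-P arrays than on the PC9 arrays. They averaged 7.97 and 8.08 in MTAC-P, against 7.16 and 7.51 in PC9, and their part in the FAM171A1 difference was not tested.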

How the results depend on the processing

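The FAM171A1, FAM171A2 and FAM171B differences kept their sign under each of the alternatives that gave a value. With a gene's probe sets averaged they were 1.34, -0.0011 and -0.43, and limma called 0 genes, with 2667 at an unadjusted p under 0.05. With a pseudocount of 16 FAM171A1 was at 2.11 and FAM171B at -0.43, and limma called 1 gene. A dim limit at the 50th percentile also left 1 gene and took FAM171B out, so that FAM171B and the fibroblast list have no value there, while a variance trend called 77. Leaving out 1 array moved the count of called genes from 0 to 47. It was 0 without MTAC-P replicate 1 (3426 at an unadjusted p under 0.05), 0 without MTAC-P replicate 2 (2000), 47 without PC9 replicate 1 and 4 without PC9 replicate 2, and the lone array of a line is assumed to vary like the other line. The cause of these shifts was not tested. With the replicate block limma called 2079 genes, FAM171A1 and FAM171B among them, on 1 residual degree of freedom. The replicate 1 minus 2 difference correlated at 0.28 between the lines across genes, and the labels do not say that the numbers mark a shared batch. Of 131 medians of the gene lists and neighbour groups, 16 moved by more than the spread between duplicates and 6 changed sign, all among the progranulin and lysosome genes, the neuron markers and the neighbours of FAM171A1. Signal over background limits FAM171A2, FAM171B and the dimmest FAM171A1 probe set.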
